A study of Mus musculus with 8 samples.

Results

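The windows described here are the promoters at which the histone mark H3K27me3 was at least 1.5-fold higher in naive CD4+ T cells lacking both Ezh1 and Ezh2 than in WT cells. A window spans 6 kb around a transcription start, and its TSS_area, the unit of all mark values below, is coverage per M reads summed over the bins of the window. A window is a member when log2((double KO + 1)/(WT + 1)) of TSS_area was 0.585 or more and the higher of both values was 1 or more. The members were thus selected on the measured double KO and WT mark values. They are 205 of 18603 windows, or 1.14% of the 17976 at the minimum value, while 266 windows (1.48%) were lower by the same fold. The cells came from lymph nodes of 129SV/B6 mice, and for every genotype there is a single ChIP-seq library and a single RNA-seq library. The double KO is Ezh1 -/- with Ezh2 fl/fl and CD4-cre, the Ezh2 KO is Ezh2 fl/fl with CD4-cre, the Ezh1 KO is Ezh1 -/-, and the WT is labelled with no allele. The cre recombinase is driven by Cd4 regulatory sequence and acts during T cell development, so Ezh2 is deleted in T lineage cells, while the Ezh1 allele affects every cell of the animal. With 1 library per genotype there is no replicate error to test against, so "higher" and "lower" compare single libraries. Since the double KO and WT values of the mark selected the members, their difference is given as a description.

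PRC2 is the Polycomb complex that methylates lysine 27 of histone H3, with Ezh1 and Ezh2 as its alternative catalytic subunits. In most tissues H3K27me3 lies over CpG-rich promoters of silent developmental regulators, and genes that a cell transcribes carry little of it. The demethylases Kdm6a and Kdm6b remove the mark. The implied ChIP depth was 78.2 to 88.2 M reads per library. With no input or spike-in to set an absolute scale, only relative levels are compared. RNA is the mean over a gene's exons of peak coverage per M reads, a level that is not divided by length. Ezh1 RNA was 0.194 in the double KO, 1.12 in the Ezh2 KO, 0.196 in the Ezh1 KO and 1.05 in WT. Ezh2 RNA, averaged over all exons, was 1.17, 1.08, 0.913 and 0.925 in the same order, and it does not check the deletion of a floxed part. The defining RNA markers of naive CD4+ T cells were present in every library, with a sum over 10 genes of 142.5 in the double KO, 136.2 in the Ezh2 KO, 138.0 in the Ezh1 KO and 156.3 in WT. The sum of 5 B cell markers was 9.51, 5.12, 3.35 and 2.62 in that order.

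Promoter sequences of 5 members are shown to put the kinds of promoter in the set side by side: 3 of the members with the largest difference, a T cell receptor chain gene and a silent developmental gene. Each run is the 250 bases before the RefSeq start, read 5′ to 3′ on the gene's strand from build GRCm38.p6, with CG dinucleotides in capitals. Bcl11b (chr12:108003415-108003664, minus strand) and Tnfrsf1a (chr6:125349473-125349722, plus strand) held 9 CG each, and Socs3 (chr11:117969367-117969616, minus strand) held 26. Cd3g (chr9:44980432-44980681, minus strand) held 4 and Sall1 (chr8:89044163-89044412, minus strand) held 13. Cd3g and Sall1 were chosen after their values were seen. The RefSeq start lies 188, 361 and 681 bases downstream of the centre of the deposited mm9 window for Bcl11b, Tnfrsf1a and Socs3, and at the centre for Cd3g and Sall1.
Bcl11b: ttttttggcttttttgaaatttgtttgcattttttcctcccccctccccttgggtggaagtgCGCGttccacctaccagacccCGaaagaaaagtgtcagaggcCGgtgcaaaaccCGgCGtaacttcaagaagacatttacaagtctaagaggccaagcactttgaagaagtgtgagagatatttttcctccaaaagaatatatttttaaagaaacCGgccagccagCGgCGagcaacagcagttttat
Tnfrsf1a: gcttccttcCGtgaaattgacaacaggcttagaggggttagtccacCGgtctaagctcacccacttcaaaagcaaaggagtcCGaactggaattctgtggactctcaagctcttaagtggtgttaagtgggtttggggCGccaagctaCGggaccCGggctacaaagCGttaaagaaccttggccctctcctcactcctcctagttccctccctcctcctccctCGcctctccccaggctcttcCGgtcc
Socs3: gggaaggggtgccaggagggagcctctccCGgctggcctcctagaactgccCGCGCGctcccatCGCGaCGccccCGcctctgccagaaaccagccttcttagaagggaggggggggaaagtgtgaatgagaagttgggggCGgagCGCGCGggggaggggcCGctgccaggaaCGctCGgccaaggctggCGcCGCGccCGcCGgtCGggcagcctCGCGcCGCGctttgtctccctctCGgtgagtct
Cd3g: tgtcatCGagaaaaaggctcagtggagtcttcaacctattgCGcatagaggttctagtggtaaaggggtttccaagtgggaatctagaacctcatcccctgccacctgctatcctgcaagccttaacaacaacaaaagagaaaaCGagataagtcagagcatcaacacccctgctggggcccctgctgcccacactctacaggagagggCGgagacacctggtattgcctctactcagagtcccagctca
Sall1: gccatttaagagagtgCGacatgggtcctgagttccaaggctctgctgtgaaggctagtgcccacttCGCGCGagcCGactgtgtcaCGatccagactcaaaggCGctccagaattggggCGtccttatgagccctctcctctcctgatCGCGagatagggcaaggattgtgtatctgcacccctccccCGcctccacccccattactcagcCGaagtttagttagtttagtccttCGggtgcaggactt

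Most members exceeded the threshold narrowly, and Cd4 stood apart from all others. The members' median log2 ratio of double KO over WT was 0.67, with a range of 0.59 to 3.35, against 0.05 over all windows. Of the 205, 157 were under 0.75, 6 reached 2-fold and 1 reached 3-fold. From the height of 1 read, the median member held 204 read equivalents in WT and the lowest 7. The 95% exact counting interval of the ratio lay above 0 at all 205, which the rule favours, and above 0.585 at 32. Such intervals reflect counting alone, because reads amplified by PCR and lacking molecular identifiers are not independent. Just inside the threshold were Actb (8.66 in the double KO and 5.43 in WT), Foxo3 (8.00 and 5.00) and Rasgrp1 (19.1 and 12.4). Just outside it were Uncx (51.0 and 33.7), Tmem132e (47.6 and 31.4) and Fkbp5 (14.6 and 9.43).

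**Figure D1:**
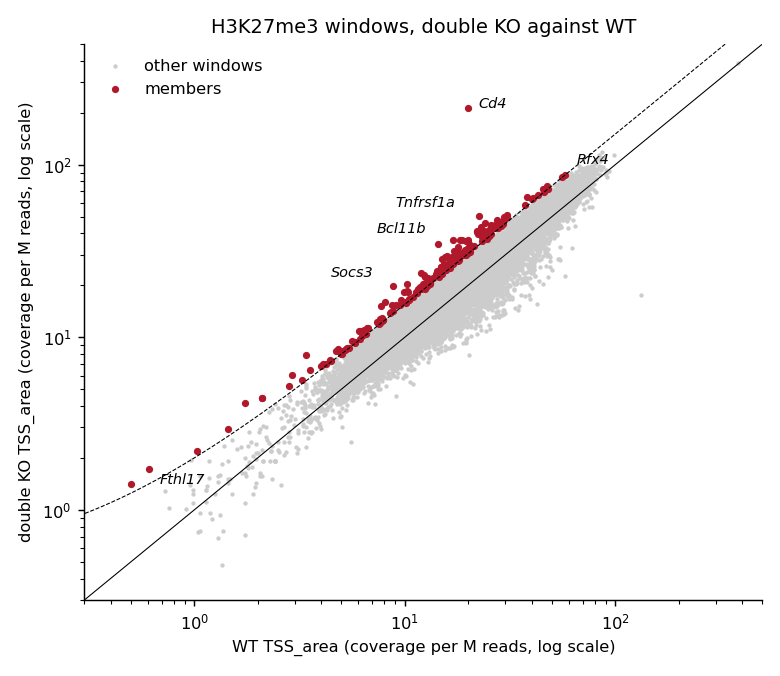
TSS_area in the double KO (vertical, log scale) against WT (horizontal, log scale), with the 205 members in red and other windows with signal in grey. The solid line marks equal values and the dashed line the 1.5-fold rule with its pseudocount of 1. Cd4 lies far above the other members, at 212.1 in the double KO and 19.9 in WT, while most members lie close to the dashed line.

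Cd4, the co-receptor gene that defines these cells, had a TSS_area of 212.1 in the double KO, 193.5 in the Ezh2 KO, 24.1 in the Ezh1 KO and 19.9 in WT (log2 ratio of double KO over WT 3.35). The highest bin of its window was 2.73, 2.60, 0.301 and 0.209 in the same order. Both libraries with CD4-cre were high and both without it low. Since the driver of the transgene holds Cd4 sequence, reads from it and from the endogenous gene cannot be told apart. Cd4 RNA was 16.3 in the double KO, 15.7 in the Ezh2 KO, 13.6 in the Ezh1 KO and 16.6 in WT. A rise of this size was not seen at the other windows within 100 kb on chromosome 6. Of these 11 windows 1 was a member, beside 1.14% of all windows. In the Ezh2 KO 0 were 1.5-fold higher than in WT, near the 0.606% of all windows, and their median log2 ratio was 0.00. The member was Gpr162, a gene named after its value was seen, at 47.5 in the double KO, 35.6 in the Ezh2 KO, 41.9 in the Ezh1 KO and 27.6 in WT. Of 50 windows within 1000 kb, 4 were members and 1 was 1.5-fold higher in the Ezh2 KO than in WT.

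After Cd4, the largest ratio was at Bcl11b, the zinc finger factor of T cell commitment, with 34.7 in the double KO, 23.8 in the Ezh2 KO, 30.7 in the Ezh1 KO and 14.5 in WT (log2 ratio 1.21). WT was the lowest library and the Ezh1 KO stood close to the double KO. Tnfrsf1a, a receptor for tumour necrosis factor, was at 50.3, 36.3, 35.5 and 22.5 in the same order (log2 ratio 1.13), with the single KOs alike and between the other libraries. Socs3, a feedback inhibitor of cytokine receptors, was at 19.8, 11.9, 18.4 and 8.77 (log2 ratio 1.09). BC021614 was at 36.4 in the double KO, 24.7 in the Ezh2 KO, 24.3 in the Ezh1 KO and 17.0 in WT. Trim12, at 7.87, 7.43, 4.29 and 3.41, belongs to a near-identical family and is uncertain, as is 1700001F09Rik at 4.18, 4.47, 2.60 and 1.74. The remaining 8 of the 15 largest ratios had log2 values of 0.89 to 0.96. Tcf7, which encodes the factor TCF1 of naive T cells, stood at 36.4 in the double KO, 24.2 in the Ezh2 KO, 26.9 in the Ezh1 KO and 18.6 in WT, and Trerf1, a transcriptional regulator, at 36.4, 22.0, 26.8 and 18.2. Ccnd2, which encodes cyclin D2, was at 23.6, 16.1, 17.4 and 11.9, with the single KOs again between the other libraries. Kdm6b, the H3K27 demethylase gene, was itself a member at 15.2 in the double KO, 9.38 in the Ezh2 KO, 12.2 in the Ezh1 KO and 7.74 in WT. Pacsin1, an adaptor of endocytosis, was at 20.3 and 10.2 in the double KO and WT, Zcchc12 at 16.0 and 8.04, St8sia1, a ganglioside synthase, at 45.7 and 24.0, and the phosphatase gene Ppm1h at 43.7 and 23.1.

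Genes of the T cell receptor complex and its proximal signalling gave more members than any other list. Of the 30 such genes listed, 11 were members (36.7%), Cd4 among them. The share was 1.14% of all windows and 1.76% of those with WT RNA of 1 or more. This list, like the others, was written with earlier results of these data known. Its median log2 ratio of double KO over WT was 0.40. The median WT RNA of the 11 members was 9.91, so these are transcribed genes. Ubash3a, a suppressor of receptor signalling, was at 22.0 in the double KO, 19.9 in the Ezh2 KO, 16.3 in the Ezh1 KO and 12.9 in WT. The kinase gene Fyn was at 25.7, 24.1, 15.6 and 15.2 in the same order, and Lcp2, which encodes the adaptor SLP-76, at 27.4, 25.4, 19.4 and 16.5. At both, the Ezh2 KO lay near the double KO and the Ezh1 KO near WT. The other 7 include the Ras activator gene Rasgrp1, named above for its place at the threshold. They also include the receptor chain genes Cd3g, Cd3d and Cd3e and the adaptors Lat and Skap1, which were named after their values were seen. Cd3g was at 41.2 in the double KO, 37.9 in the Ezh2 KO, 26.0 in the Ezh1 KO and 25.1 in WT. Its window overlaps that of Cd3d, at 30.6, 31.4, 20.0 and 19.3, so both share reads.

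Smaller numbers came from the other T cell lists. Of 26 T cell identity factors at the minimum value 3 were members (11.5%): Bcl11b, Tcf7 and Tox, the last at 32.5 in the double KO, 26.9 in the Ezh2 KO, 25.1 in the Ezh1 KO and 19.8 in WT. Of 27 naive T cell and homing genes 3 were members (11.1%), Tcf7 again, the actin cross-linker gene Actn1 (41.9, 31.3, 33.0 and 25.2 in the same order) and the costimulatory receptor gene Cd27 (16.5, 12.8, 12.8 and 10.4). Of 24 cytokine receptor and SOCS genes 4 were members (16.7%): Socs3, and the receptor chain genes Il6st (23.3, 22.7, 17.7 and 14.1), Il2rb (20.2, 14.6, 18.0 and 12.3) and Il6ra (19.9, 16.6, 14.8 and 12.7). Of 26 TNF receptor superfamily genes 4 were members (15.4%): Tnfrsf1a, Cd27, the death receptor gene Fas (18.6, 15.5, 13.4 and 10.2) and Tnfrsf25 (31.5, 22.1, 31.5 and 18.0). WT was the lowest library at each of these genes, as at 201 of the 205 members, which the rule favours. Of 28 immediate early and activation genes, the AP-1 subunit gene Fosl2 was the 1 member (3.57%), at 29.9 in the double KO, 20.2 in the Ezh2 KO, 28.0 in the Ezh1 KO and 19.0 in WT. No member was found among 29 helper and regulatory T cell genes, 24 B cell and plasma cell genes or 23 myeloid and dendritic cell genes. The same held for 20 CD8 T and NK cell genes and 27 interferon-stimulated genes. At the share of 1.14% over all windows, lists of this size would hold few or no members, so their absence is not a result. The B cell list had a median log2 ratio of -0.23. In all, 30 genes of the 16 lists were members, spread over 7 lists.

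The developmental regulators among the members were silent, with a higher median WT level of the mark than the whole set. Sox3 stood near the median of the whole set, 15.5. Of 69 developmental transcription factors outside the Hox clusters 6 were members (8.70%), with a median WT TSS_area of 43.1 and WT RNA under 0.1 at each. Sox3, an SRY-related factor of neural progenitors, was at 29.0 in the double KO, 19.0 in the Ezh2 KO, 32.0 in the Ezh1 KO and 16.8 in WT. Sall1, a zinc finger factor of kidney and limb development, was at 50.9, 30.9, 62.1 and 30.5 in the same order. At both the Ezh2 KO lay near WT, and the Ezh1 KO was the highest library. Otx1, a homeobox gene of brain development, was at 71.8, 48.3, 69.9 and 45.5, and Pax2, of kidney and eye development, at 64.2, 41.9, 67.8 and 40.8. Foxa2, of endoderm, was at 69.6, 46.7, 71.2 and 45.9, and Barhl2, of retina and spinal cord, at 84.6, 63.9, 81.9 and 55.9. None of 30 Hox genes, 47 Wnt, Hedgehog, BMP and Notch pathway genes, 62 ribosomal protein genes or 25 cell cycle genes was a member. At the share of 1.14% over all windows, lists of this size would hold few or no members. The Hox list's median log2 ratio was 0.27. The lists do not hold every gene of these pathways: Dtx1 of the Notch pathway, Axin2 and Bcl9l of the Wnt pathway and Ccnd2 of the cell cycle are members outside them, Axin2 and Bcl9l being named after their values were seen. The 5 members with the highest WT level were Rfx4, Barhl2, Cabp7, Skor1 and Foxa2. Rfx4, a regulatory factor X gene, was at 87.6 in the double KO, 66.9 in the Ezh2 KO, 88.6 in the Ezh1 KO and 57.9 in WT. The calcium-binding protein gene Cabp7 was at 72.7, 50.2, 82.6 and 47.8, and the corepressor gene Skor1 at 75.4, 52.2, 80.6 and 47.1.

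**Figure D2:**
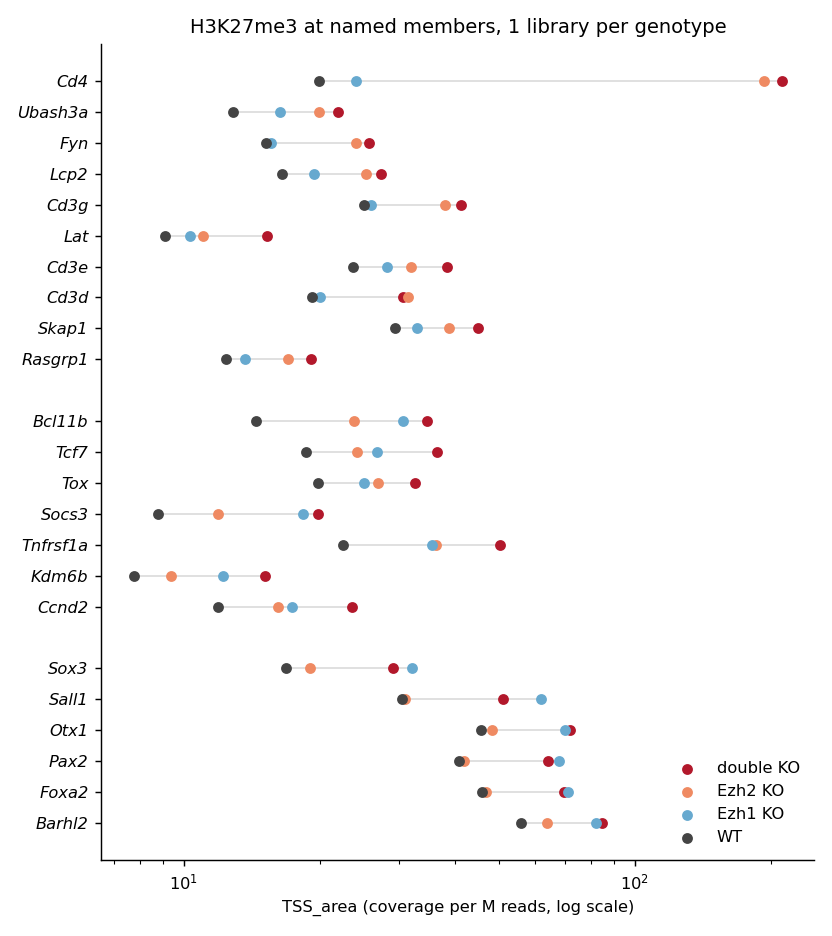
TSS_area (log scale) of 23 named members in the double KO, Ezh2 KO, Ezh1 KO and WT libraries, 1 point per library, with a line spanning the lowest to the highest. In the upper block of receptor signalling genes the Ezh2 KO points lie right of the Ezh1 KO points, as at Fyn (24.1 and 15.6). In the lower block of developmental factors they lie left of them, as at Sall1 (30.9 and 62.1).

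The single KOs lay between the double KO and WT at most members. The rule favours this order, because it chose members for a high double KO and a low WT value. Median TSS_area over the 205 was 25.7 in the double KO, 19.5 in the Ezh2 KO, 20.9 in the Ezh1 KO and 15.5 in WT, against 13.7, 13.7, 14.1 and 13.5 over all windows. The double KO was the highest of the 4 libraries at 175 members, the Ezh1 KO at 19 and the Ezh2 KO at 11. WT was the lowest at 201, and the Ezh2 KO at the other 4: Eno2, Prdm16, Fam101b and ENSMUSG00000079364, named after their values were seen. Both comparisons with WT reuse the library that chose the members for a low value, so a positive ratio there is in part fixed by the rule. In the Ezh2 KO, 25 of 204 members (12.3%) were at least 1.5-fold higher than in WT, beside 0.606% of all windows, and 0 were lower, beside 0.795%. Their median log2 ratio was 0.33, against -0.01 over all windows. In the Ezh1 KO, 52 of 203 members (25.6%) were at least 1.5-fold higher than in WT, beside 1.93% of all windows, and 0 were lower, beside 0.256%. The median log2 ratio there was 0.43, against 0.09 over all windows. Which single KO had the larger share depends on scaling. The share was 16.8% in the Ezh2 KO and 14.7% in the Ezh1 KO with TMM, 17.3% and 12.9% with median of ratios, and 40.0% and 3.39% with marked windows set equal.

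The ratio of Ezh2 KO over Ezh1 KO uses neither library that chose the members, and by it the median member stood close to the median window. Of 204 members, 9 were at least 1.5-fold higher in the Ezh2 KO (4.41%, beside 1.60% of all windows), and 10 were lower (4.90%, beside 6.71%). The median log2 ratio was -0.12, against -0.10 over all windows, and 70 members were above 0 (34.3%, against 40.1%). The counting interval lay above 0 at 25 members, below 0 at 66, and included 0 at 114. The 9 higher windows were those of Cd4, Fyn, Cd3d, the transcription factor gene Yy1, 2610018G03Rik and the uncertain Trim12, Trim5, 1700001F09Rik and Fthl17. Among the 10 lower ones were those of Sall1, Prdm16, Sox3, Cabp7, Pax2, Skor1, Foxa2, Socs3 and ENSMUSG00000079364. Those outside the naming rule in both sets were named after their values were seen. At least a 2-fold difference was found at Cd4 (log2 2.96) and nowhere else among the members, and Sall1 was next in size at -0.98. At the receptor signalling genes the ratio was above 0 at 11 of 11 members, with a median of 0.37, against 0.27 over the whole list of 30. At the developmental factors it was above 0 at 0 of 6, with a median of -0.64, against -0.48 over the 69 listed. The direction depends on scaling at a gene in each group. With background windows set equal the receptor signalling count was 10, with Lat below 0, and with marked windows set equal the developmental count was 1, Barhl2. Those scalings put the median of all windows at -0.26 and 0.31.

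By class of WT RNA the members kept the order of all windows, at lower values in the upper classes. Where WT RNA was 1 or more, the median log2 ratio of Ezh2 KO over Ezh1 KO was 0.02 over 83 members and 0.14 over all 4729 windows. It was -0.15 over 50 members and -0.03 over all 4733 windows with RNA of 0.1 to 1. Under 0.1 it was -0.27 over 71 members and -0.30 over 8418 windows. The share of members above 0 was 53.0%, 28.0% and 16.9% in these 3 classes, against 69.7%, 45.5% and 20.2% of all windows. In both sets the ratio was lowest for silent genes and highest for transcribed ones.

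**Figure D3:**
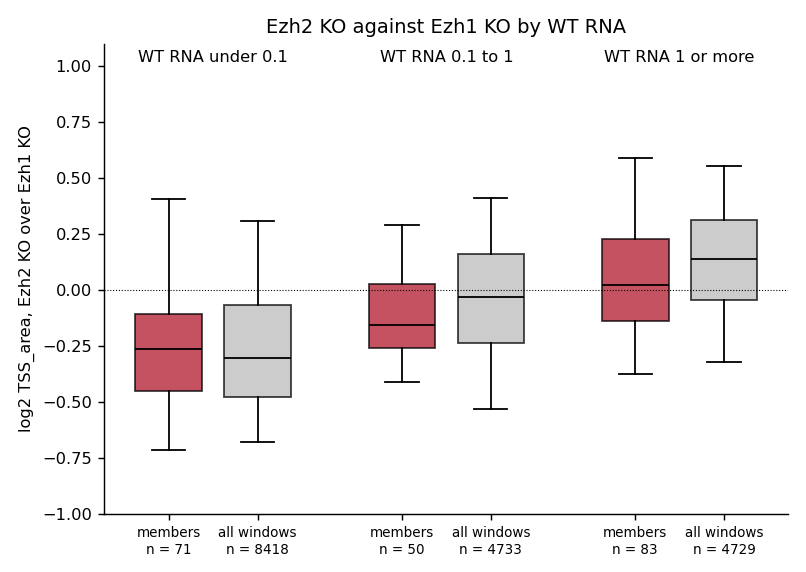
Log2 ratio of TSS_area, Ezh2 KO over Ezh1 KO, for members (red) and all windows (grey) in 3 classes of WT RNA. Boxes span the 25th to 75th percentile with the median as a line, whiskers span the 5th to 95th percentile, and the medians of members are -0.27, -0.15 and 0.02 from the lowest RNA class to the highest.

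Members were found over the whole range of WT levels, mostly outside marked chromatin. The WT value enters the rule, so these shares are a description. Windows count as marked at a WT TSS_area of 40.6 or more, 4 times the median of 7077 background windows, taken as the top tertile of WT RNA. Of the 205 members 8 were marked (3.90%), against 2231 of all windows (12.0%), and 0.359% of marked windows were members. Under a WT level of 5, 23 of 387 windows were members (5.94%), and 2 were lower by the same fold. Between 5 and 10 there were 39 members among 4500 windows (0.867%), and between 10 and 20 there were 81 among 7199 (1.13%). From 20 to 40, 53 of 3598 windows were members (1.47%), while 157 were lower (4.36%). From 40 up, 9 of 2292 were members (0.393%) and 32 were lower (1.40%). Higher windows thus outnumbered lower ones below a WT level of 20, and lower ones outnumbered higher ones above it. The single KOs differed along this range, over all windows as well as at members. The members' median log2 ratio of Ezh2 KO over WT was 0.46, 0.40, 0.34, 0.29 and 0.08 from the lowest WT level to the highest. Over all windows it was 0.18, 0.18, 0.001, -0.16 and -0.12. For Ezh1 KO over WT the members' median was 0.34, 0.41, 0.43, 0.48 and 0.61, against 0.02, -0.002, 0.03, 0.21 and 0.29 over all windows. The median of Ezh2 KO over Ezh1 KO was 0.06, -0.03, -0.12, -0.20 and -0.52 at members, against 0.14, 0.18, -0.03, -0.39 and -0.41 over all windows.

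**Figure D4:**
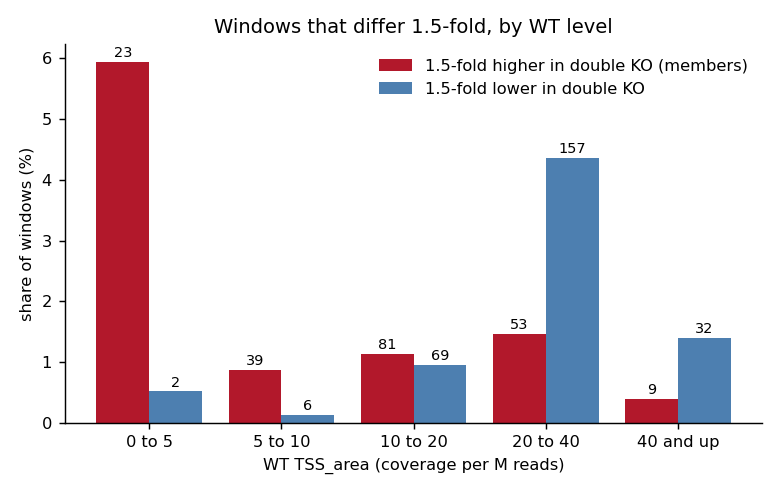
Share of windows (%) that were at least 1.5-fold higher (red, the members) or lower (blue) in the double KO than in WT, by WT TSS_area, with the number of windows over each bar. The share of members is 5.94% under a WT level of 5 and between 0.393% and 1.47% above it, and the share of lower windows is greatest, at 4.36%, from 20 to 40.

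Members were more often transcribed in WT than windows at large. All 205 have an RNA value, with a median of 0.442 in WT against 0.142 over all 18484 windows with one. WT RNA was 1 or more at 83 members (40.5%, against 26.3% of all) and under 0.1 at 71 (34.6%, against 47.4%). By the same classes, 1.76% of windows with RNA of 1 or more were members, 1.06% of those from 0.1 to 1, and 0.844% of those under 0.1.

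RNA of most members in the double KO lay near that in WT. Of the 84 members with RNA of 1 or more in the higher of the double KO and WT libraries, 1 was at least 2-fold higher (1.19%, beside 1.07% of all genes) and 0 were at least 2-fold lower (beside 0.169%). The median log2 ratio was -0.09, against -0.10 over all 5313 genes, and 35 members were above 0 (41.7%, against 32.9%). With TMM scaling of RNA, which shifts the double KO by -0.12 on the log2 scale, the members' median was 0.02, so its sign depends on that scaling. The higher gene was Dtx1, an E3 ubiquitin ligase gene of the Notch pathway, with RNA of 7.06 in the double KO, 6.19 in the Ezh2 KO, 3.77 in the Ezh1 KO and 3.26 in WT (log2 ratio 1.09). Its mark was 18.4, 11.4, 14.7 and 10.3 in the same order, so both RNA and mark were highest in the double KO. At 1.5-fold, 3 members were higher in RNA (3.57%, beside 2.65% of all genes) and 4 lower (4.76%, beside 2.33%). The higher ones were Dtx1, Ccnd2 (5.57, 5.57, 4.51 and 3.47) and Socs3 (4.15, 3.82, 2.90 and 2.58). By this mean over exons the libraries with CD4-cre were higher than those without at all 3. By the deposited median over exons Socs3 was at 2.39 in the double KO, 1.10 in the Ezh2 KO, 1.24 in the Ezh1 KO and 1.63 in WT, with the Ezh2 KO lowest. The lower ones were Actg1, BC021614, Fam189b and Klk8, of which Actg1, Fam189b and Klk8 were named after their values were seen. Actg1, a cytoplasmic actin gene, was at 30.1 in the double KO, 39.7 in the Ezh2 KO, 40.7 in the Ezh1 KO and 51.7 in WT. BC021614 was at 1.68, 1.52, 2.05 and 2.92.

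At the T cell genes Bcl11b, Tcf7, Cd3g and Fyn, RNA differed less between the double KO and WT than the mark did. The rule selected on the mark and not on RNA, so it favours a smaller difference in RNA. Bcl11b RNA was 5.73 in the double KO, 7.26 in the Ezh2 KO, 7.72 in the Ezh1 KO and 6.62 in WT, and Tcf7 RNA was 13.8, 12.0, 12.5 and 10.1. Neither reached 1.5-fold, and the log2 ratio of double KO over WT was -0.20 at Bcl11b and 0.45 at Tcf7. The receptor chain gene Cd3g had RNA of 89.9, 98.4, 94.0 and 108.5 in the same order, and Fyn 6.24, 7.05, 7.22 and 7.07. The 6 developmental factors were all under 0.1 in every library. In the single KOs, 0 of 83 members were 2-fold different from WT in RNA in either direction, beside 1.10% higher and 0.393% lower in the Ezh2 KO and 0.154% and 0.288% in the Ezh1 KO over all genes. Between the Ezh2 KO and the Ezh1 KO, 0 of 82 members were 2-fold different in RNA, beside 0.718% of all genes higher and 0.0776% lower. Marker RNA of some other cell types, but not all, was also highest in the double KO. B cell markers were so for 5 of 5 genes, and the defining marker Cd79a was at 1.12 in the double KO, 0.755 in the Ezh2 KO, 0.499 in the Ezh1 KO and 0.359 in WT. The sum of 5 myeloid markers was 1.30, 0.708, 0.672 and 0.383 in the same order, most of it from Lyz2 (1.19, 0.576, 0.561 and 0.275). Csf1r was also highest in the double KO, but Itgam and S100a8 were lower there than in WT, and Cd14 was highest in the Ezh2 KO. The sum of 2 CD8 T cell markers was 2.07, 1.21, 1.01 and 1.22, and Siglech, of plasmacytoid dendritic cells, was at 0.387, 0.128, 0.0739 and 0.0821. The sum of 3 NK cell markers was 0.629, 1.505, 0.639 and 1.03, highest in the Ezh2 KO through Klrb1c (1.03 there). Klrd1 was highest in WT (0.854) and Ncr1 in the Ezh1 KO (0.0853). The sum of 3 erythroid markers was 0.0856, 0.0637, 0.183 and 0.529 in the same order. For 3 markers of lymph node stroma and endothelium it was 3.83, 4.06, 4.20 and 4.36, and both of these sums were highest in WT. Most of the stromal sum came from Pecam1 (3.77, 4.01, 4.16 and 4.33). The members of both sets did not all follow their sums. Hbb-b1 and Hba-a1 were highest in WT, but Alas2 and Cdh5 were highest in the double KO, and Col1a1 was lowest in WT. The part of these cells in the mark or RNA values of the members was not tested. In bulk samples, fewer cells of a type and less RNA per cell cannot be told apart.

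**Figure D5:**
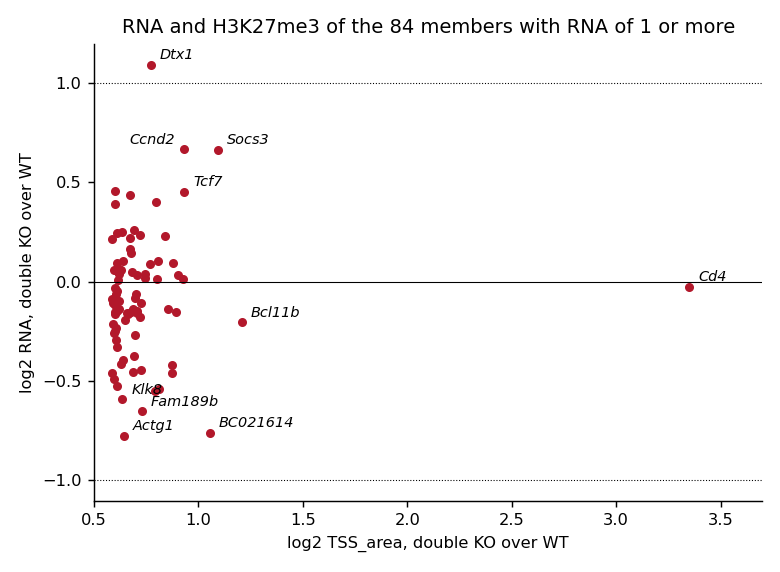
Log2 ratio of RNA against log2 ratio of TSS_area, both double KO over WT, for the 84 members with RNA of 1 or more in either library. Dotted lines mark 2-fold in RNA, passed by Dtx1 alone (1.09), while Cd4, at a mark ratio of 3.35, has an RNA ratio of -0.03.

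The members were spread over the genome. The largest number lay on chromosome 11, with 23 of 1453 windows (1.58%), and the smallest on chromosome 16, with 2 of 571 (0.350%), leaving out chromosome Y and the mitochondrial genome, with 0. There were 192 distinct loci, because 13 pairs of members had overlapping windows and share reads. Among these pairs were Cd3g with Cd3d and Cryba4 with Crybb1, named for their position.

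The windows of members were less often CpG island-like at their centre than windows of like transcription, while CpG counts just before the start were close. In the central 1000 bases of the mm9 window, 82 of 205 members (40.0%) had a GC content of at least 50% and an observed over expected CpG of at least 0.6, against 51.2% of all windows. Among windows with WT RNA of 1 or more the share was 50.6% for members and 75.8% for all, and under 0.1 it was 21.1% and 28.7%. Among marked windows the order was the other way, with 7 of 8 members (87.5%) and 61.1% of all. In the matched RefSeq promoters of 300 bases the median number of CG was 23 for members and 22 for all at WT RNA of 1 or more, and 9 and 8 under 0.1. The ratio of observed over expected CpG was 0.161 at Cd3g, 0.292 at Cd4, 0.321 at Fyn and 0.115 at Lcp2, while it was 0.637 at Sall1, 0.832 at Sox3, 0.732 at Pax2 and 0.961 at Barhl2. Of the receptor signalling members only Rasgrp1, at 0.643, passed this definition, and of the developmental ones all but Foxa2, at 0.581.

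Motif letters were searched on both strands in the RefSeq promoters of 300 bases that matched a window, 128 of members and 11932 of all, and hits of different motifs may share letters. The TCF/LEF letters CTTTGAA were found in 3.91% of members' promoters and 4.11% of all, and the Bcl11b run printed above holds them. The RUNX letters TGTGGT were found in 11.7% and 13.5%, the GATA letters AGATAA in 7.03% and 7.84%, and the STAT letters TTCNNNGAA in 6.25% and 7.26%. The ETS letters CCGGAA were found in 15.6% of members and 21.9% of all, and the E-box letters CAGGTG in 27.3% and 19.4%. The ETS direction depends on the class of WT RNA. At 1 or more it was 15.7% of 51 members' promoters and 35.9% of all, and under 0.1 it was 12.2% of 49 and 8.87%. For the E-box the shares were 21.6% and 14.5% at 1 or more, and 32.7% and 23.1% under 0.1. A match is a string of letters and not a measured site.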

How the data were processed

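H3K27me3 ChIP-seq and RNA-seq were deposited for 4 genotypes, 8 libraries. Reads were aligned to mm9 with Bowtie 0.12.7 and kept at a single location with few errors, per the labels' protocols. Per the submitters' processing notes, the tools bcl2fastq, Cufflinks and Cuffdiff are named too, with no step given. For ChIP the authors deposited coverage, as the area (TSS_area) and the highest bin of a window. From the values, bins are 25 bp, reads are extended to 151 bp and coverage is per M reads. The deposited RNA values are also a coverage signal, the mean or median over exons of its peak, with the number of exons as another deposited column. How the authors made these columns is not given in the sources used here. Of the windows, 528 were at 0 in all libraries.

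Log2 ratios used a pseudocount of 1 (ChIP) or 0.1 (RNA) and features at 1 or more in the higher library, so changes of low features are understated. With 1 library per group no test was run, and the plan held none. Counting intervals of 95% are exact (Clopper-Pearson), for the ratio without pseudocount. TMM was computed without weights, trimming 30% of ratios and 5% of levels. The calling code was run on simulated data with counting noise alone and changes larger than those of most members. Such a run does not check the calls of the members. Python 3.11.15, numpy 2.4.6, pandas 2.3.3, scipy 1.17.1 and matplotlib 3.10.9 were used. Assays were joined by gene symbol. A few genes are not reported here. Members, lists and settings were chosen with earlier results of these data known. Named genes are the 15 largest ratios, the 5 highest WT levels, list members (the 4 largest where a list has over 6), 2-fold RNA or single KO differences, and 3 windows each side of the threshold. Promoter sequences come from RefSeq (GRCm38.p6), found for 128 members by exact match of the sequence to mm9.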

Additional observations from a re-analysis of the deposited data

How the results depend on the processing

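No paired analysis was possible because each genotype has 1 library per assay. Leaving out a replicate was not possible for the same reason. The number of members, 205 as deposited, was 138 with TMM, 134 with median of ratios and 61 with marked windows set equal; it was 293 with a pseudocount of 0.1 and 29 with 10. It was 6 at 2-fold, 1977 at a difference of at least 25%, and 682 from the highest bin of a window, 98 of them among the 205. The share of members 1.5-fold higher in the Ezh2 KO than in WT was 12.3%, and 16.8% with TMM, 17.3% with median of ratios, 6.67% with background windows set equal, 40.0% with marked windows set equal, 17.5% and 3.45% with pseudocounts of 0.1 and 10, and 19.0% from the highest bin. For the Ezh1 KO it was 25.6%, and 14.7% with TMM, 12.9% with median of ratios, 33.3% with background and 3.39% with marked windows set equal. The median log2 of Ezh2 KO over Ezh1 KO, -0.12, was -0.03 with TMM, -0.02 with median of ratios, -0.30 with background windows set equal and -0.20 with a pseudocount of 10; it reversed to 0.25 with marked windows set equal. The share of members marked in WT, 3.90%, was 1.99% with background windows set equal, 0% with marked windows set equal or a pseudocount of 10, 0.880% from the highest bin and 27.8% with marked at 2 times background. At 2-fold, 4 list genes were members. Windows that were CpG island-like at their centre were 40.0% of members and 87.5% of marked members. The RNA median of -0.09 reversed to 0.02 with TMM, and with an RNA pseudocount of 1, 0 members were 2-fold higher. The causes were not tested. Leaving out Cd4, or keeping 1 window per overlapping group, both chosen after seeing the data, moved no count by over 1.5 times and gave 204 and 192 members. At 1 library per genotype, depth bounds counting error only.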

Other observations

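A pair of gene groups not described above was listed after the members' values had been seen, so their counts are a description and support nothing. Of 28 TGF-beta signalling genes at the minimum value 6 were members (21.4%, beside 1.14% of all windows), while the list's median log2 ratio of double KO over WT was 0.20. The receptor gene Tgfbr3 had a TSS_area of 42.9 in the double KO, 32.2 in the Ezh2 KO, 32.8 in the Ezh1 KO and 25.7 in WT, and Pmepa1, an inhibitor of the pathway, was at 30.6, 22.6, 24.3 and 18.5 in the same order. The others were the ligand gene Tgfb1, the signal transducer gene Smad3, the inhibitor gene Smad7 and the corepressor gene Ski, at WT levels of 4.98, 7.52, 5.80 and 13.2. The RNA of Pmepa1 was 0.532 in the double KO, 0.480 in the Ezh2 KO, 0.287 in the Ezh1 KO and 0.243 in WT, below the minimum of 1.

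Of 19 genes of the actin cytoskeleton 4 were members (21.1%): Actb, Actg1, Actn1 and Arhgef1. Actb, the other cytoplasmic actin gene, was at 8.66 in the double KO, 8.01 in the Ezh2 KO, 6.03 in the Ezh1 KO and 5.43 in WT, all under the background median of 10.1 in WT. Its RNA was 194.5, 228.5, 225.7 and 267.5 in the same order, so mark was highest and RNA lowest in the double KO, as at Actg1. At the other pair RNA was highest in the double KO: Actn1 was at 7.09, 5.85, 6.84 and 6.93, and Arhgef1 at 4.41, 3.36, 3.85 and 4.13.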
